A study of Mus musculus with 4 samples.

Results

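The 10 genes described here mark or specify uterine epithelium. They were chosen by symbol and are 10 of 57186 genes counted, 10 of 19991 in the deposited table of length-scaled abundance (TPM), and 10 of the 20950 tested. They were the transcription factor genes Foxa2, Sox9, Sox17, Pax8, Pax2 and Emx2, the gland markers Cxcl15 and Fxyd4, and the homeobox genes Msx1 and Msx2. RNA came from whole uterus of Mus musculus on gestational day 4. The control group was wild type (Control WT, 2 libraries) and the knockout group carried the genotype Prss29Cre/Cre;Pgrf/f (Pgr gecKO, 2 libraries). In that genotype both copies of the gland protease gene Prss29 carry Cre recombinase and both copies of Pgr, the progesterone receptor gene, are floxed, so that Cre is driven where Prss29 is transcribed. The groups therefore differ in Pgr, in Cre and in Prss29 at once, and these cannot be told apart. The labels give neither age nor strain, and do not say whether each library was from a separate mouse, so the p-values rest on the variation among these libraries alone, and that variation may be technical.

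Uterine glands arise as buds of the luminal epithelium and secrete factors on which the implanting embryo depends. FOXA2 is the forkhead factor that marks gland epithelium in the adult mouse uterus and is needed for glands to form and to produce leukaemia inhibitory factor. SOX9 and SOX17 are factors of the SRY-box family present in uterine epithelium, PAX8 and PAX2 are paired-box factors of Müllerian duct epithelium, and EMX2 is a homeobox factor required for that duct to form. MSX1 and MSX2 are homeobox factors of the luminal epithelium that are required together for receptivity. CXCL15 (lungkine) is a chemokine long used as a marker of mouse uterine glands, and FXYD4 is a small regulator of the sodium pump.

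Total counts ran from 29932153 to 35149834 per library. Pgr RNA was at 140.5 and 138.6 CPM (each count relative to the TMM-adjusted size of its library) in controls 1 and 2 and at 130.1 and 146.2 CPM in knockouts 1 and 2, which in whole uterus does not check a deletion limited to glands. Prss29, the locus of Cre, had 43.9 and 5.41 CPM in the controls and 0 counts in both knockouts. Of 20950 genes tested, edgeR called 1 higher in the knockout, the guanylate-binding protein gene Gbp2b, and 0 lower. With libraries scaled to epithelial genes in place of all genes, it called 20 higher and 6 lower. Markers of epithelium, stroma and muscle were abundant in every library, with summed levels of 2225 to 2962 CPM over 15 epithelial genes, 5426 to 9589 CPM over 11 stromal genes and 3371 to 11630 CPM over 10 smooth muscle genes. Adipocyte markers differed most between libraries, at 0.20 and 4.30 CPM in controls 1 and 2 and at 0.030 and 29.6 CPM in knockouts 1 and 2, so knockout 2 stood apart in RNA of fat.

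None of the 10 genes passed a test of knockout against control. In edgeR 0 of 10 passed at an adjusted p of 0.05, and 0 had an unadjusted p below 0.05. Over all genes tested 0.00477% were called, all higher, and 3.01% had an unadjusted p below 0.05. DESeq2 called 0 of 10, against 0.392% of all genes it tested, and limma-voom 0 of 10. At an unadjusted p below 0.05 each had 0 of 10, against 2.14% and 2.87% of all genes. The smallest unadjusted p in each tool was that of Msx2, at 0.0986, 0.0722 and 0.0892 in edgeR, DESeq2 and limma-voom. The log2 fold changes, knockout over control, ran from −0.62 for Foxa2 to 0.80 for Msx2 with a median of −0.0031, beside a median of 0.0063 over all genes, and all 10 95% intervals included 0. These intervals were wide, with standard errors of 0.23 to 0.63 on the log2 scale, so differences within these intervals were not detectable with 2 libraries a group. In bulk RNA, fewer cells of a type and less RNA per cell cannot be told apart.

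**Figure D1:**
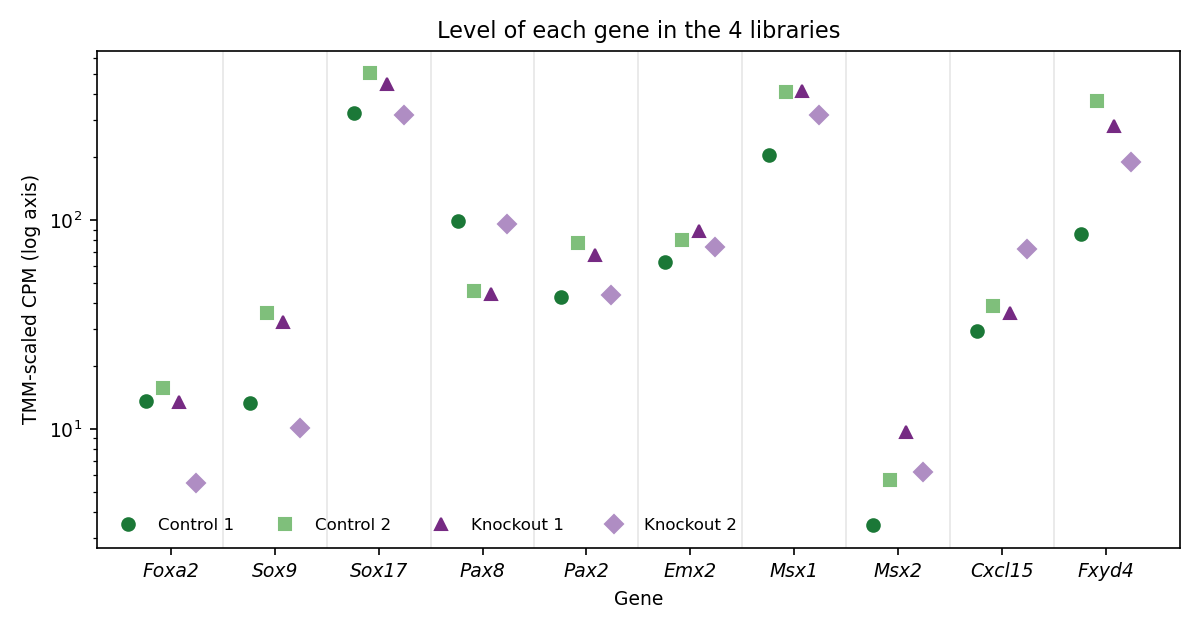
TMM-scaled CPM on a log axis for the 10 genes, with 1 point per library. Sox9, Sox17, Pax2 and Fxyd4 are higher in control 2 and knockout 1 than in control 1 and knockout 2, Pax8 is lower there, and knockout 2 is lowest for Foxa2 at 5.49 CPM and highest for Cxcl15 at 72.6 CPM.

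Foxa2 (ENSMUSG00000037025), the factor of gland formation, was counted 470 and 551 times in controls 1 and 2, and 447 and 154 times in knockouts 1 and 2. Its level was 13.53 and 15.70 CPM in the controls and 13.51 and 5.49 CPM in the knockouts, with means of 14.6 ± 1.54 and 9.50 ± 5.67 (SD, n = 2). Knockout 1 matched control 1 almost exactly, and knockout 2 alone lay well below the other libraries. The log2 fold change was −0.62 (SE 0.44, 95% interval −1.68 to 0.44), and edgeR gave an unadjusted p of 0.207 and an adjusted p of 1. Without knockout 2 the value was −0.11, and without knockout 1 it was −1.41. In TMM-scaled CPM both knockouts lay below both controls, by a margin of 13.51 against 13.53 CPM, whereas 13.1% of all genes tested were ordered that way. In TPM, which divides by gene length, the groups overlapped, since knockout 1 at 18.8 TPM lay above control 1 at 18.3 TPM.

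The 2 other members of the forkhead FOXA subfamily were scarcely detected. Foxa1 had 0 counts in every library, where a floor of 3 counts equals 0.0855 to 0.107 CPM, and Foxa3 was counted 1 and 10 times in controls 1 and 2, and 5 and 1 times in knockouts 1 and 2. Foxa2 was thus the one FOXA gene of the 3 with more than 10 counts in any library.

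Sox9 (ENSMUSG00000000567), a factor of epithelial progenitors in many tissues, differed more within each group than between groups. It was at 13.3 and 35.8 CPM in controls 1 and 2 and at 32.6 and 10.1 CPM in knockouts 1 and 2. Control 2 and knockout 1 were high and the other libraries low, a 2.70-fold difference between the controls and a 3.24-fold difference between the knockouts. Its log2 fold change was −0.20 (SE 0.63, 95% interval −1.70 to 1.30). The sign turned without control 2, to 0.69, and without knockout 2, to 0.42.

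Sox17 (ENSMUSG00000025902), an F-group SOX factor, had the highest mean TPM of the 12 SOX genes tested. Its level was 326.0 and 503.9 CPM in controls 1 and 2 and 449.3 and 318.4 CPM in knockouts 1 and 2. The same libraries as for Sox9 were high, with a smaller difference of 1.55-fold between the controls and 1.41-fold between the knockouts. The log2 fold change was −0.11 (SE 0.33, 95% interval −0.90 to 0.67), and it turned to 0.23 without control 2 and to 0.12 without knockout 2. On the GRCm38 annotation an RNA gene on the other strand, Gm37587, shares exon bases with Sox17, but it had 106 to 194 counts per library against at least 8934 for Sox17.

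Among the SOX family as a whole, 0 of 12 tested genes were called and the median log2 fold change was −0.10. In 7 of the 12, control 2 and knockout 1 both lay above control 1 and knockout 2, an order found in 27.8% of all genes tested. In 2 of the 12, Sox7 and Sox11, both knockouts lay below both controls, against 13.1% of all genes. Sox11 alone had an unadjusted p below 0.05 (edgeR, 0.028), against 3.01% of all genes. It was scarce, at 1.53 and 5.61 CPM in controls 1 and 2 and at 1.09 and 0.285 CPM in knockouts 1 and 2. Sox4, which acts in progenitor cells, stood at 272.4 and 428.2 CPM in controls 1 and 2 and at 433.6 and 203.0 CPM in knockouts 1 and 2. Sox18, an endothelial relative of Sox17, stood at 49.6 and 70.2 CPM in controls 1 and 2 and at 73.4 and 39.5 CPM in knockouts 1 and 2. Both therefore followed the order seen for Sox9 and Sox17, as did Sox13, at 80.4 and 114.4 CPM in controls 1 and 2 and at 121.5 and 89.6 CPM in knockouts 1 and 2. Sox7, the other F-group gene of endothelium, did not, at 46.9 and 30.6 CPM in controls 1 and 2 and at 30.1 and 27.0 CPM in knockouts 1 and 2. Sox5 ranged over the libraries from 39.3 to 55.0 CPM and Sox12 from 52.5 to 73.5 CPM, while Sox8 and Sox15 stayed between 0.143 and 2.28 CPM and Sox10, a neural crest gene that did not pass the filter on low counts, had 314 counts in control 2 and 4 to 8 in the other libraries.

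The paired-box genes Pax8 and Pax2 varied in opposite directions between libraries. Pax8 (ENSMUSG00000026976) was at 98.4 and 45.9 CPM in controls 1 and 2 and at 44.5 and 95.3 CPM in knockouts 1 and 2. Pax2 (ENSMUSG00000004231) was at 42.9 and 77.6 CPM in controls 1 and 2 and at 68.0 and 43.7 CPM in knockouts 1 and 2. Control 1 and knockout 2 were thus the high libraries for Pax8 and the low ones for Pax2. Compared per length within a library, the TPM of Pax8 was 2.32 times that of Pax2 in control 1 and 2.20 times in knockout 2, while the ratio was 0.60 in control 2 and 0.66 in knockout 1. No difference between groups was detected for either gene. The log2 fold changes were −0.047 (SE 0.46, 95% interval −1.15 to 1.05) for Pax8 and −0.11 (SE 0.35, 95% interval −0.94 to 0.72) for Pax2. The sign of each depended on single libraries. It turned for Pax8 to 0.62 without control 1 and to 0.40 without knockout 1, and for Pax2 to 0.38 without control 2 and to 0.18 without knockout 2.

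No other gene of the paired-box family passed the filter on low counts. Pax1, Pax3, Pax4 and Pax7 had 0 counts in every library, and Pax5, Pax6 and Pax9 had at most 26. An RNA gene on the strand opposite Pax8, Gm13415, shares exon bases with it on the GRCm38 annotation and moved with it, at 17.5 and 7.01 CPM in controls 1 and 2 and at 6.38 and 19.3 CPM in knockouts 1 and 2. The strand setting of the counting is not given in the sources used here, so reads of the pair may not be separable where they overlap.

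Since the paired-box genes are the pair that diverged, the 250 bases before a start site of each are shown, from RefSeq on GRCm38.p6, a build other than the GRCm39 of the count files. For Pax2 it is the most upstream of 3 listed starts. Capitals mark any match to the letters searched on both strands. These were TGTTTAC or else TGTTTGC for forkhead factors, ACAATG or else ACAATA or else ACAAAG for SOX factors, TAATTG or else TAATTA for homeobox factors, AGAACA as a steroid receptor half-site, and the TATA box letters TATAAA. A stretch may match more than one of them. Pax8 is at chr2:24475600-24475849 on the minus strand and Pax2 at chr19:44746351-44746600 on the plus strand.
Pax8: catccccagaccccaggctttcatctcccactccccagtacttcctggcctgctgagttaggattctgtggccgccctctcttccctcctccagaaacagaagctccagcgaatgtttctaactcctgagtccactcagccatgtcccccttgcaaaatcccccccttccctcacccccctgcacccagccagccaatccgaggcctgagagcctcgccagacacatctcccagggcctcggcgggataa
Pax2: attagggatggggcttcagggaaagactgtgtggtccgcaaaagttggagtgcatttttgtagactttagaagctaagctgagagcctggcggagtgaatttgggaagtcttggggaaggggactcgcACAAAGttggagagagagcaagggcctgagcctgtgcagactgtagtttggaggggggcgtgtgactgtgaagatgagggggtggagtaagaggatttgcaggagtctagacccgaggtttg
The Pax8 window held none of these letters, and the Pax2 window held 1 SOX match, centred 119 bases before the start. Of 32851 such windows over all genes, 30.5% held a SOX match, 7.29% a forkhead match, 11.3% a homeobox match, 16.1% the half-site and 12.4% TATAAA. Over the 12 windows listed for 8 of the 10 genes there was no forkhead match and no half-site, a statement on these letters in these windows only.

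Emx2 (ENSMUSG00000043969), needed for the Müllerian duct, was the steadiest of the 10 genes. Its level was 62.7 and 80.2 CPM in controls 1 and 2 and 88.8 and 74.4 CPM in knockouts 1 and 2, and the groups overlapped. The log2 fold change was 0.19 with the smallest standard error of the set, 0.23, and a 95% interval of −0.35 to 0.74. Without control 1 it was 0.038 and without knockout 1 it was 0.060. Its antisense partner Emx2os, which shares exon bases with it, was counted 622 and 777 times in controls 1 and 2, and 669 and 449 times in knockouts 1 and 2. Emx1 had 0 counts in every library.

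The luminal homeobox genes Msx1 and Msx2 had mean levels above control in the knockout without passing the test. Msx1 (ENSMUSG00000048450) was at 204.2 and 412.3 CPM in controls 1 and 2 and at 414.2 and 319.8 CPM in knockouts 1 and 2. Only control 1 was clearly lower than the rest. The log2 fold change was 0.25 (SE 0.38, 95% interval −0.65 to 1.15), and it was −0.16 without control 1.

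Msx2 (ENSMUSG00000021469), much less abundant, was counted 120 and 199 times in controls 1 and 2, and 319 and 174 times in knockouts 1 and 2. Its level was 3.45 and 5.67 CPM in the controls and 9.64 and 6.20 CPM in the knockouts, so that both knockouts lay above both controls, as they did in 12.2% of all genes tested. The log2 fold change was 0.80, SE 0.42 and 95% interval −0.19 to 1.79 (edgeR, adjusted p = 1). Its lowest and highest values with 1 library left out were 0.44 and 1.20, without knockout 1 and without control 2. The separation of the groups was lost in TPM, where knockout 2 at 5.42 lay below control 2 at 5.55. Per length, Msx1 exceeded Msx2 in every library, 62.6 and 77.0 times in controls 1 and 2, and 45.5 and 54.6 times in knockouts 1 and 2.

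The distal-less genes Dlx5 and Dlx6, homeobox relatives transcribed in uterine epithelium, followed the order of Sox17. Dlx5 was at 39.4 and 61.6 CPM in controls 1 and 2 and at 61.8 and 49.9 CPM in knockouts 1 and 2. Dlx6 was at 21.0 and 33.7 CPM in controls 1 and 2 and at 34.6 and 21.6 CPM in knockouts 1 and 2. Of the 11 EMX, MSX and DLX genes listed, 5 were tested and 0 were called.

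The 2 gland markers did not vary together. Cxcl15 (ENSMUSG00000029375) was at 29.5 and 38.6 CPM in controls 1 and 2 and at 35.7 and 72.6 CPM in knockouts 1 and 2, with knockout 2 alone above the others. The log2 fold change of Cxcl15 was 0.67, SE 0.36 and 95% interval −0.19 to 1.52 (edgeR, unadjusted p = 0.106, adjusted p = 1). Without knockout 2 the value was 0.070, and without knockout 1 it was 1.09. Knockout 2 is the library with the least Foxa2, and per length the ratio of Cxcl15 to Foxa2 was 14.7 there against 2.43, 2.74 and 2.94 in control 1, control 2 and knockout 1. It is also the library with the most adipocyte RNA, at 29.6 CPM summed over 4 tested markers, and the highest summed mesothelial markers, at 213.6 CPM against 146.7 to 188.6 CPM. Most of that mesothelial sum was Wt1, at 153.7 CPM in knockout 2 and 131.3 CPM in control 1. Upk3b, Msln and Upk1b were at 31.97, 10.55 and 9.16 CPM in knockout 2 and at 30.48, 8.81 and 6.65 CPM in control 1. Lrrn4 was lower in knockout 2, at 8.20 CPM against 11.31 CPM in control 1. The part of fat and mesothelium in the Cxcl15 and Foxa2 values was not tested.

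Fxyd4 (ENSMUSG00000004988), the sodium pump regulator, had the widest spread between controls of the 10 genes. It was at 85.5 and 373.0 CPM in controls 1 and 2, a 4.36-fold difference, and at 282.6 and 188.9 CPM in knockouts 1 and 2. Both knockouts lay between the controls. Its log2 fold change was 0.041 (SE 0.62, 95% interval −1.43 to 1.51), with −0.65 without control 1 and 1.46 without control 2.

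Among the 7 FXYD genes, all tested, 0 were called. Fxyd6 had 51.8 and 51.4 CPM in controls 1 and 2 and 71.6 and 79.5 CPM in knockouts 1 and 2. Fxyd5 had 66.5 and 48.4 CPM in controls 1 and 2 and 40.9 and 34.1 CPM in knockouts 1 and 2. Both knockouts lay above both controls for Fxyd6 and below them for Fxyd5, as in 12.2% and 13.1% of all genes tested. Their unadjusted p in edgeR was 0.030 and 0.043, where 3.01% of all genes were below 0.05. Neither passed over all genes (edgeR, adjusted p = 1). Fxyd3 ranged over the 4 libraries from 51.8 to 63.4 CPM, Fxyd1 from 37.1 to 68.5 CPM, and Fxyd2 and Fxyd7 were under 5 CPM in each. Of 9 genes listed for the chemokine family of Cxcl15 and its receptors, 4 were tested and 0 were called. Of these 4, 3 had a log2 fold change below 0, against 48.9% of all genes tested, Cxcl15 alone being above it. One was Cxcl5, a neutrophil chemokine gene. It was at 2.13 and 2.48 CPM in controls 1 and 2 and at 0.665 and 0.962 CPM in knockouts 1 and 2. Both knockouts thus lay below both controls for Cxcl5, as in 13.1% of all genes, and its unadjusted p in edgeR was 0.020. The groups overlapped for the platelet factor gene Pf4, at 0.605 to 4.49 CPM, and for Ppbp, a platelet chemokine gene, at 0.272 to 1.85 CPM.

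The Cxcl15 window is shown because it alone among the 12 held a SOX, a homeobox and a TATAAA match together. It lies at chr5:90794284-90794533 on the plus strand of GRCm38.p6 (RefSeq), and capitals mark the matches.
Cxcl15: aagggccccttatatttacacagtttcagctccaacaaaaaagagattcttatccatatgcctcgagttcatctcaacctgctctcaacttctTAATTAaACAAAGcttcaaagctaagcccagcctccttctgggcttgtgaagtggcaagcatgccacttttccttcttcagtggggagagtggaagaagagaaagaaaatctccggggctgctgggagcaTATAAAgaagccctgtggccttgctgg
The homeobox match TAATTA and the SOX match ACAAAG are centred 154 and 147 bases before the start, and TATAAA is centred 24 bases before it. The window held 2 CpG dinucleotides, the fewest of the 12, whereas the median over all windows was 6. A match of letters is a description and says nothing of binding.

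Of the 10 genes, 6 shared one order of the libraries that cut across genotype. For Sox9, Sox17, Pax2, Emx2, Msx1 and Fxyd4, control 2 and knockout 1 both lay above control 1 and knockout 2, and for Pax8 both lay below. Over all genes tested, 27.8% had the first order and 26.6% the reverse. Both depended on scaling. The first order held for 8 of the 10 genes in CPM without factors, against 35.3% of all genes, and for 8 in TPM, against 33.6%. It held for 7 with upper-quartile scaling, against 29.5%, and for 6 with median-ratio size factors, against 26.7%. Relative to pan-epithelial genes it held for 5, against 11.6%, and relative to Krt8, Krt18, Krt19 and Epcam for 6, against 2794 of 19934 genes. Pax8 alone had the reverse order in each. The spread between the 2 controls exceeded the difference between groups, on the log2 scale, in 7 of the 10 genes, and the spread between the 2 knockouts did so in 9. The same counts were not made over all genes, so these do not set the 10 genes apart. In 4 of the 10 the controls differed more than 2-fold, and in 4 the knockouts did, against 13.3% and 16.6% of all genes tested. Of the 13319 genes whose mean was 5 CPM or more, the shares were 5.51% and 6.56%, and 24.8% had the order of Sox17 and 32.7% the reverse.

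Markers of some cell types followed one of these orders and others did not. Of 10 smooth muscle genes, 8 were higher in control 1 and knockout 2 than in control 2 and knockout 1, among them Acta2, the smooth muscle actin gene, at 1991 and 500.4 CPM in controls 1 and 2 and at 1396 and 2406 CPM in knockouts 1 and 2. Of 5 mesothelial genes, 4 did so, and of 13 luminal genes 7 did so, including Wnt7a, the epithelial Wnt ligand gene, at 58.1 and 26.5 CPM in controls 1 and 2 and at 26.2 and 48.0 CPM in knockouts 1 and 2. Of 15 pan-epithelial genes, 6 had the order of Sox17 and 1 the reverse. Of 11 stromal genes 4 had each order, and of 8 endothelial genes 1 had each. Of 8 leukocyte genes 3 had the order of Sox17 and 0 the reverse, and of 4 adipocyte genes tested 0 had either. By genotype, both knockouts lay below both controls in 4 leukocyte, 5 pan-epithelial and 1 luminal gene, against 13.1% of all genes. They lay above in 2 smooth muscle, 1 mesothelial and 1 squamous gene, against 12.2%. In no stromal, endothelial or adipocyte gene did the groups separate. All 10 smooth muscle genes had a log2 fold change above 0, against 10696 of the 20950 genes tested. Each of the 10 was lowest in control 2, so their shared sign leans on that library. None of these genes was called. Of 7 ciliated and oviduct genes 3 had the order of Sox17 and 1 the reverse. The ciliated cell factor gene Foxj1 had the order of Sox17, at 0.345 and 5.47 CPM in controls 1 and 2 and at 8.16 and 2.74 CPM in knockouts 1 and 2. Both knockouts lay above both controls for Cfap43, at 4.55 and 5.16 CPM in controls 1 and 2 and at 13.5 and 15.5 CPM in knockouts 1 and 2. They lay below for the oviduct glycoprotein gene Ovgp1, at 29.3 and 36.2 CPM in controls 1 and 2 and at 16.5 and 22.7 CPM in knockouts 1 and 2. Of the squamous keratin genes, markers of cervix and vagina, Krt5 had at most 11 counts, and Krt14 had 110 counts in control 2 and 12, 4 and 10 in control 1, knockout 1 and knockout 2. The most abundant genes of the other lists varied as well. Cldn3, a tight junction gene of epithelium, was at 321.0 and 578.9 CPM in controls 1 and 2 and at 501.2 and 329.9 CPM in knockouts 1 and 2, the order of Sox17, while the cadherin gene Cdh1 ranged from 332.7 to 447.7 CPM. The luminal genes Calb1 and Acod1 ranged from 228.1 to 701.5 CPM and from 142.3 to 236.5 CPM. Col1a1 and Col1a2, collagen genes of stroma, were highest in control 1, at 3306 and 2908 CPM, and the myosin gene Myh11 was lowest in control 2, at 551.3 CPM. The endothelial genes Pecam1 and Cdh5 ranged from 179.2 to 236.4 CPM and from 124.3 to 245.2 CPM, and the leukocyte genes Ptprc and Csf1r from 41.2 to 65.8 CPM and from 36.4 to 45.8 CPM. Of the 8 leukocyte genes, 3 had an unadjusted p below 0.05 in edgeR, against 3.01% of all genes. These were Itgam, Cd68 and Adgre1, each lower in the knockout. Itgam was at 10.56 and 7.52 CPM in controls 1 and 2 and at 2.36 and 2.89 CPM in knockouts 1 and 2. Mesothelial Wt1 and Upk3b ranged from 115.9 to 153.7 CPM and from 6.47 to 32.0 CPM, ciliary Ccdc39 from 21.1 to 30.9 CPM, and squamous Dsg3 and Trp63 from 0.967 to 8.41 CPM and from 0.499 to 2.42 CPM. The adipocyte genes Cfd and Adipoq reached 18.1 and 5.17 CPM in knockout 2. The part of tissue composition in the levels of the 10 genes was not tested.

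**Figure D2:**
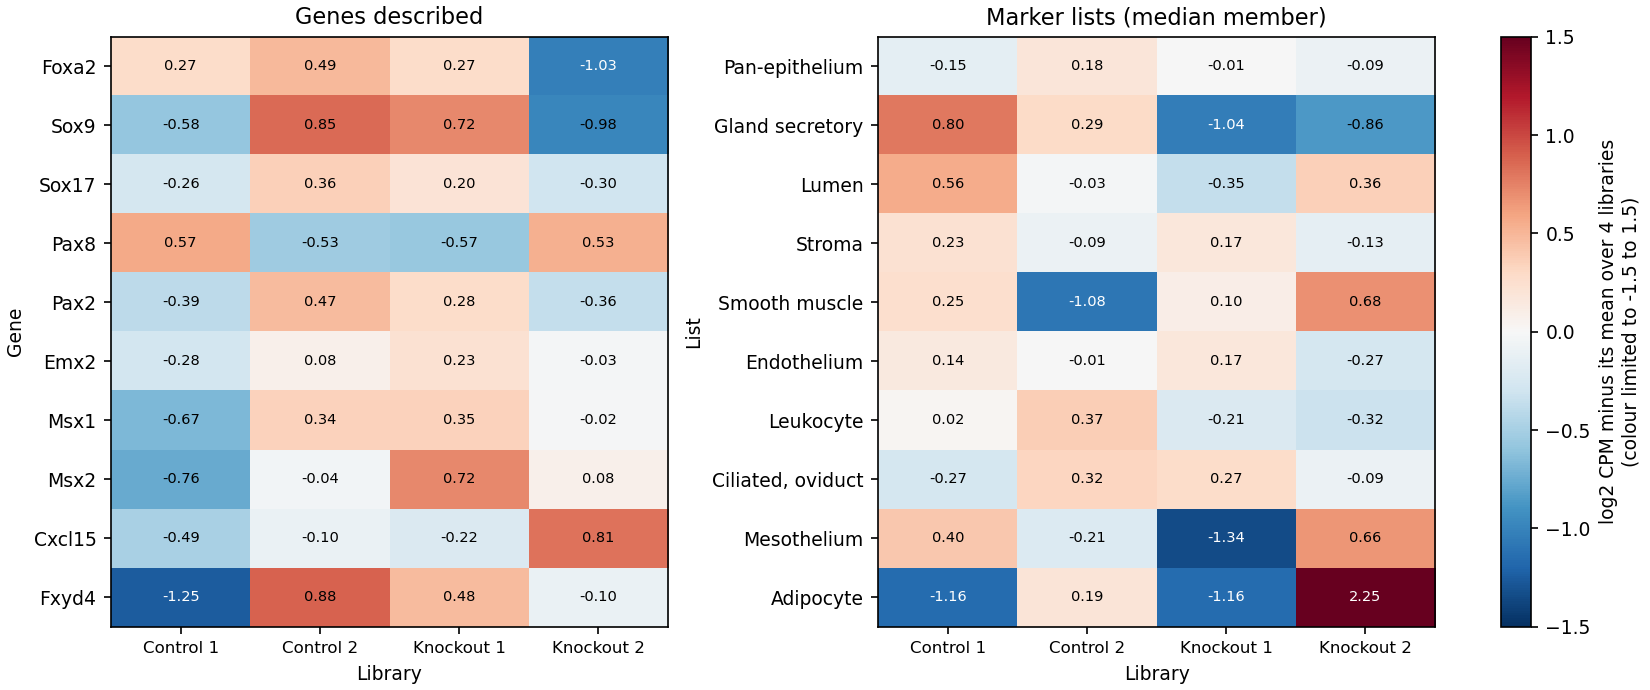
Log2 CPM minus its mean over the 4 libraries, for the 10 genes on the left and for the median member of 10 marker lists on the right (0.5 CPM added for the lists). Pax8 has the reverse sign of Pax2 and Sox17 in each library, smooth muscle is lowest in control 2 at −1.08, and adipocyte markers peak in knockout 2 at 2.25.

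The same libraries stood apart when levels were set against epithelial genes of the same library. Relative to the median of 15 pan-epithelial genes on a log2 TPM scale, Sox9 was at −3.81 in control 1, −2.86 in control 2, −2.75 in knockout 1 and −4.45 in knockout 2. Pax8 was at −1.47 in control 1, −3.05 in control 2, −2.85 in knockout 1 and −1.76 in knockout 2, again with control 1 and knockout 2 high. Foxa2 was at −2.98 in control 1, −3.24 in control 2, −3.22 in knockout 1 and −4.52 in knockout 2, and knockout 2 again stood alone. Both knockouts lay above both controls for Emx2, Msx2 and Cxcl15, 3 of the 10 genes against 8.14% of 19934 genes, and when Krt8, Krt18, Krt19 and Epcam served as the reference for Cxcl15 alone, against 3.18%. With either reference 0 of the 10 had both knockouts below both controls, against 9.27% and 13.7%. These values carry no test.

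**Figure D3:**
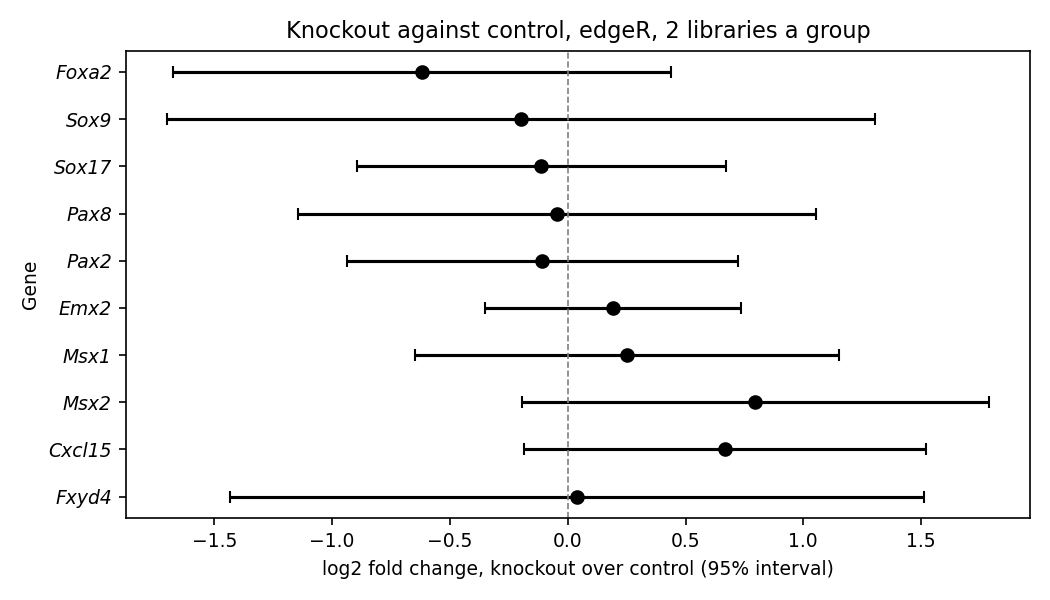
Log2 fold change of knockout over control with its 95% interval from edgeR, for 2 libraries a group. All 10 intervals cross 0, from −1.68 to 0.44 for Foxa2 at one end of the set to −0.19 to 1.79 for Msx2 at the other.

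The order of levels per length was nearly the same in both groups. In the controls it ran from Fxyd4 at 375.6 ± 333.3 TPM (SD, n = 2) through Msx1 at 319.0 ± 152.7, Sox17 at 278.6 ± 84.9, Emx2 at 76.2 ± 13.3 and Cxcl15 at 51.3 ± 9.75 to Pax8 at 38.1 ± 19.6, Pax2 at 31.5 ± 12.9, Foxa2 at 19.8 ± 2.11, Sox9 at 19.0 ± 12.4 and Msx2 at 4.46 ± 1.54 TPM. The ranges of Fxyd4, Msx1 and Sox17 overlapped, as did those of Cxcl15 and Pax8, Pax8 and Pax2, and Foxa2 and Sox9. In the knockouts the first 7 kept their places, and Sox9 at 16.5 ± 13.5 TPM came before Foxa2 at 12.7 ± 8.64 TPM, with overlapping ranges.

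Genes secreted by glands are given beside the factor genes, and the difference between the lists was not tested. None of 10 gland secretory genes was called over all genes, but in 8 of them both knockouts lay below both controls, against 13.1% of all genes, and 7 had an unadjusted p below 0.05 in edgeR, against 3.01%. Of those 7, 6 were lower in the knockout, among them Prss29, the locus that carries Cre, and Aldh1a1, a retinaldehyde dehydrogenase gene, was higher, at 9.76 and 12.1 CPM in controls 1 and 2 and at 15.7 and 20.3 CPM in knockouts 1 and 2. Of the 6 gland factor genes, 1 had that order, and 0 had an unadjusted p below 0.05. The medians were −2.03 and −0.11 on the log2 scale. This secretory list was drawn up with earlier results of these data known and is no independent evidence of direction. Per length, the ratio of Ttr, the transthyretin gene, to Foxa2 was 1.82 in control 1, 0.624 in control 2, 0.0715 in knockout 1 and 0.208 in knockout 2. The ratio of the trypsin inhibitor gene Spink1 to Foxa2 was 6.45 in control 1, 12.0 in control 2, 2.59 in knockout 1 and 4.94 in knockout 2. For both pairs the 2 knockouts lay below the 2 controls. Gpx3, the most abundant secretory gene listed, was at 192.3 and 93.5 CPM in controls 1 and 2 and at 96.5 and 116.1 CPM in knockouts 1 and 2, so its groups overlapped.

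**Figure D4:**
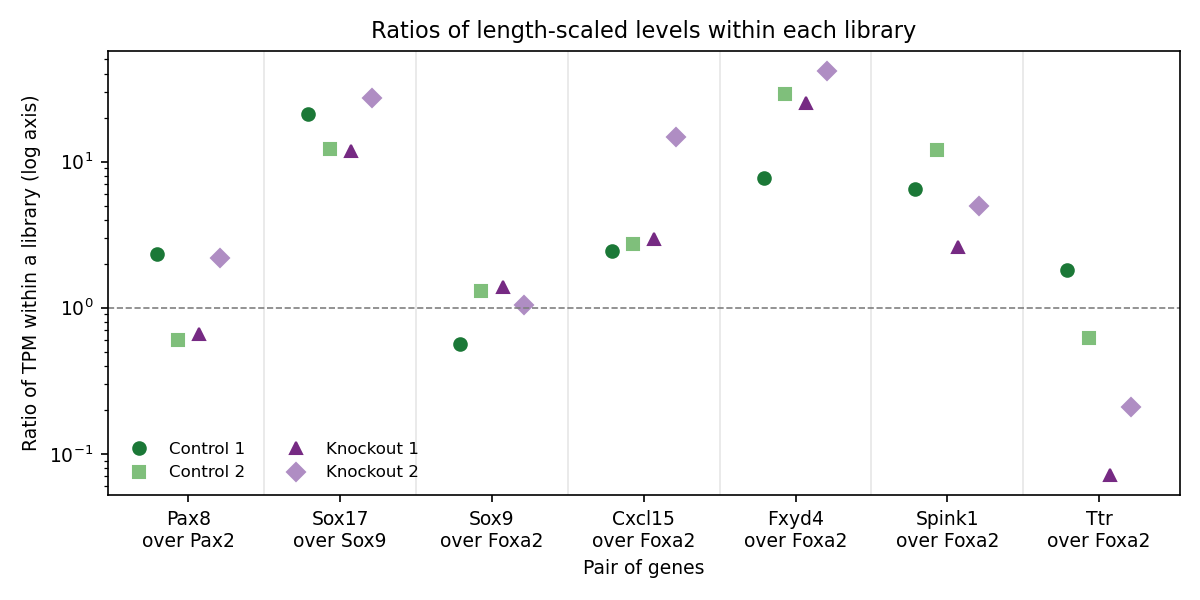
Ratio of TPM values of gene pairs within each library, on a log axis, with the dashed line at equal levels. Pax8 exceeds Pax2 in control 1 and knockout 2 only, and Cxcl15 over Foxa2 stands out in knockout 2 at 14.7. Both ratios of Ttr and Spink1 to Foxa2 are lower in the knockouts, these genes being from a list drawn up with earlier results known.

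Other genes of Müllerian duct and gland development gave a similar result. Of 30 listed, 27 were tested, 0 were called and 2 had an unadjusted p below 0.05, with a median log2 fold change of −0.058. The most abundant were the beta-catenin gene Ctnnb1, at 868.7 and 784.2 CPM in controls 1 and 2 and at 836.5 and 871.7 CPM in knockouts 1 and 2, and Hoxa10, at 397.6 and 460.8 CPM in controls 1 and 2 and at 539.1 and 448.0 CPM in knockouts 1 and 2. The 2 with an unadjusted p below 0.05 in edgeR, named after their values were seen, were Lgr5, a receptor gene of the Wnt pathway, and the Wnt ligand gene Wnt4. Lgr5 stood at 37.6 CPM in control 1 and between 2.00 and 3.60 CPM in the other 3 libraries. Wnt4 was at 8.20 and 7.81 CPM in controls 1 and 2 and at 4.90 and 2.46 CPM in knockouts 1 and 2, and neither passed over all genes (edgeR, adjusted p = 1).

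The genes closest in pattern were found among 13305 others whose mean was 5 CPM or more, by the root-mean-square distance of log2 CPM, centred on its mean, over the 4 libraries. Nearest to Foxa2 were Lpar4, Hdac1-ps and Hivep3, at distances of 0.060, 0.070 and 0.071. Nearest to Sox9 were Acrbp, Noxa1 and Gm37827, at 0.066 to 0.078. Nearest to Sox17 were Kcnq1ot1, Zfp791 and Gm15929, at 0.0093 to 0.019, and 276 genes lay within 0.1 of it, against 11 for Foxa2 and 4 for Sox9. Nearest to Cxcl15 were Zfp931, Pfdn5 and Dgat2, at 0.035 to 0.048, and to Msx1 were Gpt, Panct2 and Cxcr4, at 0.039 to 0.043. Among the 10 genes themselves the closest pair was Sox17 and Pax2, at 0.095. With 4 libraries, such distances describe these samples only.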

How the data were processed

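RNA of whole uterus was sequenced in 4 libraries, 2 per genotype. Per the submitters' processing notes, Trimmomatic, STAR, featureCounts and the build GRCm39 were used. No source used here gives their versions, the annotation or the strand setting. The authors deposited raw counts for 57186 genes and a table of TPM for 19991 genes with a total count of at least 51, where TPM is count over gene length scaled to a fixed sum. Columns were matched to samples by the names in the labels.

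Counts were tested with the quasi-likelihood test of edgeR 4.0.16 (R 4.3.3), on a design holding genotype alone, after TMM scaling and filterByExpr (minimum count 10, minimum total 15), which kept 20950 genes including all 10 described. P-values were adjusted by Benjamini-Hochberg over all tested genes, with a threshold of 0.05. Standard errors were derived from the F statistic. The procedure was tested on simulated data, where it recovered nearly all of the larger changes and few of the smaller ones, and the share of false calls was above the threshold on adjusted p. DESeq2 1.42.0 and limma 3.58.1 were alternatives, with other scaling, filters, replicate blocks and each library left out. No library pair agreed within sampling noise (lowest chi-square per degree of freedom 45.2). A floor is 3 counts per library. Floors cover counting error only.

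The 10 genes and all gene lists were chosen with earlier results of these data known. By rule, named were the 10 genes, Pgr and Prss29, members of their gene families with a mean of at least 1 TPM, the 2 most abundant tested members of each other list, list members past the threshold, and, for Foxa2, Sox9, Sox17, Cxcl15 and Msx1, the 3 nearest genes in pattern. Genes outside that rule, among them Gbp2b, Wnt7a, Foxj1, Krt5, Krt14, Aldh1a1, Ttr, Lgr5, Wnt4, the overlapping RNA genes and family members with few counts, were chosen after their values were seen. Promoter windows are those of RefSeq on GRCm38.p6. Windows with annotated exon bases are not printed.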

Additional observations from a re-analysis of the deposited data

How the results depend on the processing

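Over 14 alternatives, 0 of the 10 genes was called in any, and the lowest adjusted p was 0.289, for Cxcl15 without knockout replicate 1. The signs of all 10 held in the 10 alternatives that kept all 4 libraries. With 1 library left out, 11 of the 40 values of the 10 genes turned sign, in 6 genes. With all libraries, the log2 fold changes of those 6 lay between −0.20 and 0.25, each smaller in size than its standard error. The share of such turns over all genes was not computed. The ranges of log2 fold change were −1.28 to 0.69 for Sox9, −0.38 to 0.23 for Sox17, −0.70 to 0.62 for Pax8, −0.46 to 0.38 for Pax2, −0.16 to 0.84 for Msx1 and −0.65 to 1.46 for Fxyd4. The cause was not tested.

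Genes called over the whole table, 1 higher and 0 lower in edgeR, were 35 and 19 with no low-count filter, 44 and 46 with DESeq2, 0 and 0 with limma-voom, 3 and 0 with limma on log2(TPM + 1), and 20 and 6 with scaling to pan-epithelial genes. With 1 library left out they ran from 10 to 39 higher and from 4 to 22 lower. With the replicate block they were 22 and 10. The replicate numbers pair no samples by the labels, and deviations of same-numbered libraries were negatively correlated over genes (−0.444), so a crossed block, added after seeing the data, was fitted and called 22 higher and 15 lower. Neither block called any of the 10 genes. Relative to epithelial genes, both knockouts exceeded both controls in 3 of the 10 genes (8.14% of all genes), and in 1 with the reference of Krt8, Krt18, Krt19 and Epcam (3.18%). In the order of control levels, 4 neighbouring pairs did not overlap in TPM and 2 in CPM. Depth limits chiefly the scarce genes, such as Msx2 with 120 to 319 counts per library.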
